A study of Mus musculus with 14 samples.

Results

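The second pellet of a chromatoid body preparation from adult mouse testis (pellet2) was set against the first pellet (pellet1), the material from which it was made. Members were the genes with a symbol whose level in FPKM, a count of sequenced fragments scaled to transcript length and library size, averaged at least 5 over the 2 pellets and was above 0 in both. There were 8235 of them among 21905 features with a symbol and 27024 features in all. Ppp2r3a lay just inside that limit, at 4.98 FPKM in pellet2 and 5.02 in pellet1, and Hdc lay just outside it, at 6.60 FPKM in pellet2 and 3.38 in pellet1. The rule fixed which genes are described and not in which direction they moved.

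The series holds 14 libraries in 10 groups, made along the purification of the chromatoid body. Pellet2 and pellet1 are 1 library each, as are the supernatant and the lysate that came before them. All 4 came from C57BL/6 mice of at least 6 weeks, with no genotype or treatment between them. Tubules were dissociated with collagenase, and the cells were fixed with formaldehyde, lysed in RIPA buffer and sonicated. Centrifugation of that lysate gave the supernatant and pellet1. A second round of sonication, a pass through a filter and a second spin turned pellet1 into pellet2, the input of the later immunoprecipitations (IPs). The labels do not say how many animals were pooled, nor which proteins or granules each pellet held. Between the pellets lay 1 sonication, filtration and centrifugation step in 1 preparation. The effect of that step cannot be told apart from differences in library making or read sampling. With 1 library each, no value here has an SD, no difference has a replicate check, and no p-value was computed. A gene was called higher or lower in pellet2 at 2-fold or more, on the log2(FPKM + 1) scale, after the median of all members was subtracted. That median was -0.06 on the log2 scale before subtraction. The log2(FPKM + 1) scale understates the change of low genes.

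The chromatoid body is a dense granule of RNA and protein that sits beside the nucleus of round spermatids. It holds the helicase MVH (the product of Ddx4), PIWI proteins, piRNAs and factors of RNA decay, and is seen as a site of RNA storage and processing. Nucleoli are another dense assembly of RNA and protein. They hold small nucleolar RNAs (snoRNAs), which are mostly cut out of introns of other genes and guide the chemical modification of ribosomal RNA: box C/D snoRNAs guide ribose methylation and box H/ACA snoRNAs guide pseudouridylation. Cajal body RNAs do the same for spliceosomal RNAs.

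The sequences below are those of some of the snoRNA genes named later, and not of all those with the largest ratios. They were taken from GENCODE M21 (build GRCm38) and written 5′ to 3′ on the strand of the gene. Capitals mark the first match to the C box motif TGATGA and the last match to the D box motif CTGA in box C/D genes, and the ACA triplet that ends 3 bases before the 3′ end in box H/ACA genes. These are matches of bases only and need not be working boxes: the marked CTGA of Snord53 lies far from the 3′ end.
Snord92 (chr17:71631281-71631365, plus strand): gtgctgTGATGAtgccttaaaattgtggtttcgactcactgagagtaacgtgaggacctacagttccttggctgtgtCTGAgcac
Snord53 (chr17:71640879-71640956, plus strand): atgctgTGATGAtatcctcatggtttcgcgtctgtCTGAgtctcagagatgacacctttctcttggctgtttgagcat
Snord93 (chr5:23852210-23852280, plus strand): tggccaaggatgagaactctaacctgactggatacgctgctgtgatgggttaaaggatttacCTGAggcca
Snord42a (chr11:78181299-78181363, minus strand): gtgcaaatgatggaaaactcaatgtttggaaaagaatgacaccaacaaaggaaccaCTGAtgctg
Snord42b (chr11:78183056-78183124, minus strand): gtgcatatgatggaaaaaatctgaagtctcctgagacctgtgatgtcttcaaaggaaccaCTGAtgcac
Snora31 (chr14:75847905-75848034, plus strand): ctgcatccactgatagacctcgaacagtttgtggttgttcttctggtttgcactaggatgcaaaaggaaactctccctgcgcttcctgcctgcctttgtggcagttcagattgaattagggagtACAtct
All 56 box C/D members matched 1 sequence, of 64 to 238 bases with a median of 80. TGATGA was found on the strand of the gene in 38 of them (67.9%) and CTGA in all 56. The 32 box H/ACA and Cajal body members had sequences of 70 to 325 bases with a median of 132. TGATGA was found in 5 of those (15.6%), CTGA in 18 (56.2%), and ACA at the stated place in 23 (71.9%), against 0 of the 56 box C/D sequences.

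The pellets held much the same RNAs. Of the 8235 members, 256 were called higher in pellet2 (3.11%) and 270 lower (3.28%), so 6.39% were called in either direction. The other 7709 (93.6%) lay within 2-fold, and 6366 (77.3%) within 1.5-fold. The middle 50% of the centred log2 ratios lay between -0.31 and 0.31. Small RNA genes were 107 of the members (1.30%), and made up 41 of the 270 lower calls (15.2%) but 8 of the 256 higher ones (3.13%). Among the 8128 other genes the calls were nearly even, with 248 higher and 229 lower.

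**Figure D1:**
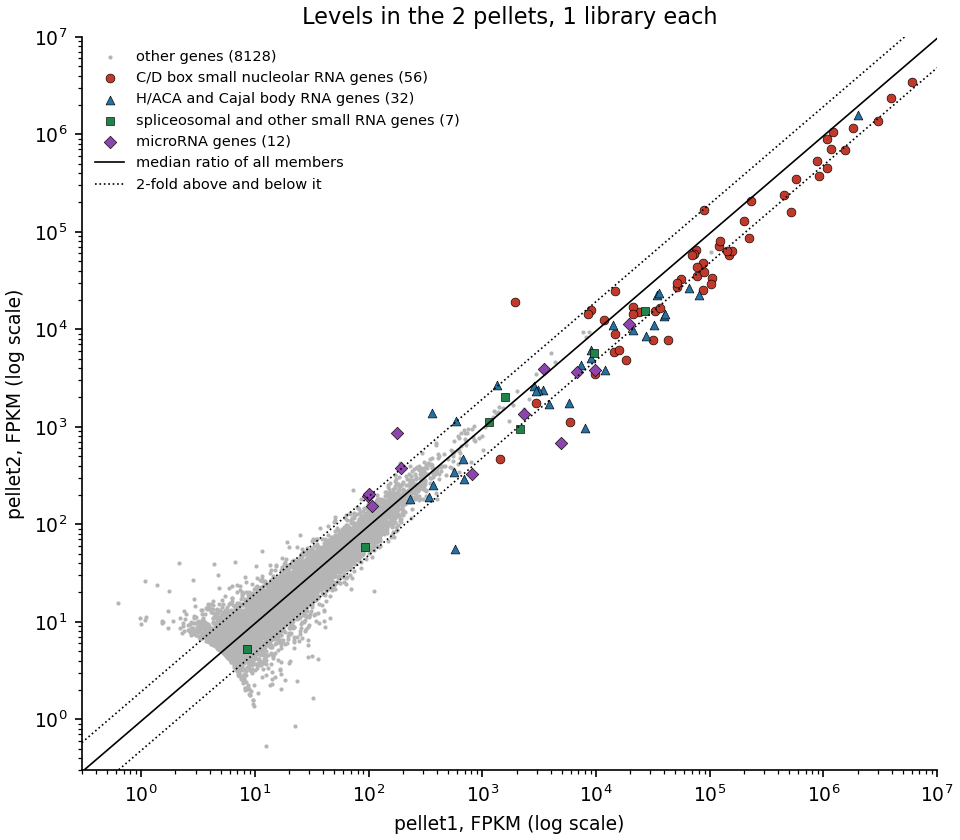
Level in pellet2 (vertical axis) against pellet1 (horizontal axis), both in FPKM on log scales, for 8235 genes. Each point is 1 gene; the solid line is the median ratio of all members and the dotted lines lie 2-fold above and below it. Most box C/D and box H/ACA genes lie under the solid line at the upper right, and the points spread most where the levels are low.

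The snoRNA genes were the group that stood lowest in pellet2. Of the 88 snoRNA and Cajal body RNA genes, 37 were called lower (42.0%, against 3.28% of all members) and 4 higher. Below the median of all members, where 50% of them lie, were 79 of the 88. The 56 box C/D genes had 24 lower, 1 higher and a median centred log2 ratio of -0.77. The 32 box H/ACA and Cajal body genes had 13 lower, 3 higher and a median of -0.69. The medians of the families were thus close to each other, and the median of all members is 0 by construction.

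Along the preparation, these RNAs were low in the supernatant, high in pellet1 and intermediate in pellet2. The box C/D genes had a median of 9219 FPKM in the lysate, 4049 in the supernatant, 81565 in pellet1 and 40794 in pellet2. For the box H/ACA and Cajal body genes the medians were 816 FPKM in the lysate, 478 in the supernatant, 6606 in pellet1 and 2639 in pellet2. Pellet2 lay below pellet1 for 79 of the 88 genes and above the lysate for 85, and it met both conditions for 76. The supernatant lay below the lysate for 79. SnoRNA genes thus stayed far above their lysate level in pellet2, at a level nearer to the lysate than that of pellet1.

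**Figure D2:**
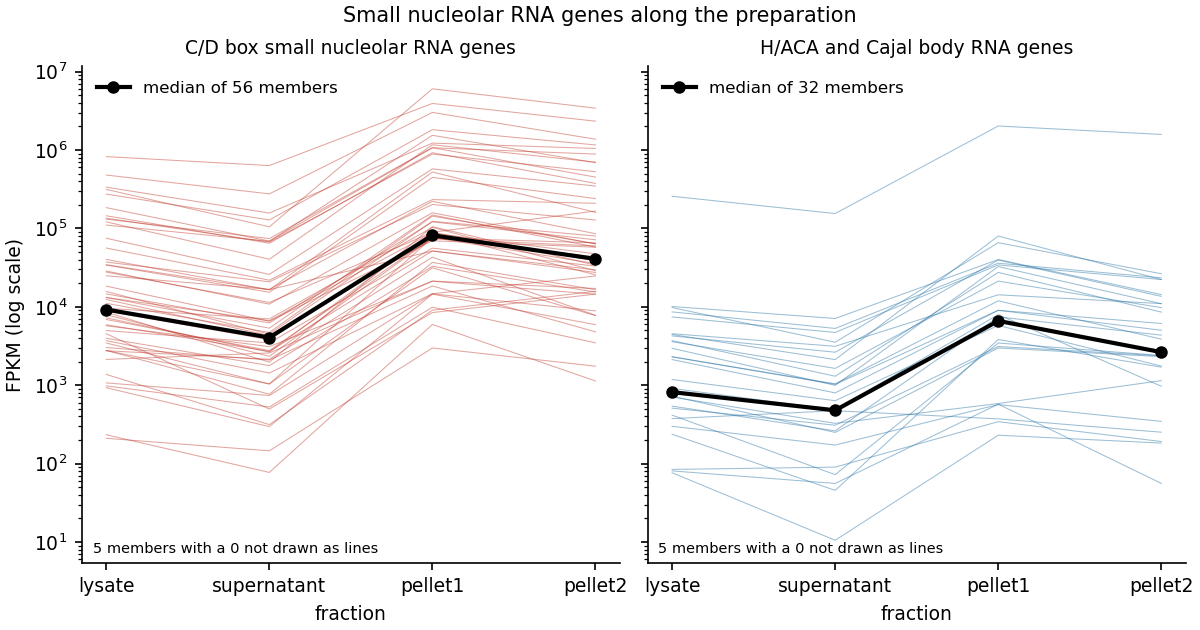
FPKM (log scale) of box C/D (left) and box H/ACA and Cajal body genes (right) in the lysate, supernatant, pellet1 and pellet2, in the order of the preparation. Thin lines are single genes and the black line is the median over 56 and 32 members; 5 members in each panel are listed at 0 in a fraction and have no line. The medians fall in the supernatant, peak in pellet1 and are lower again in pellet2.

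Snord92, one of the sequences printed above, was at 160025 FPKM in pellet2 and 523531 in pellet1, with 16463 in the supernatant and 40124 in the lysate. It was 3.15-fold lower in pellet2, and the authors' deposited table gives that difference a q-value of 0.0353. Snord53, which lies in the same listed locus (mm9 chr17:71965555-72008371), was at 25568 FPKM in pellet2 and 88103 in pellet1, 3.31-fold lower. The 2 sequences are identical at 60 of 89 aligned positions (67.4%), so they are not the same sequence. Their origin, and whether reads were shared between them, was not tested. Snord93 had the lowest ratio of the box C/D members, at 7779 FPKM in pellet2 and 42937 in pellet1, 5.31-fold lower. Its sequence holds CTGA but not TGATGA.

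Of the box H/ACA genes, Snora31 was at 969 FPKM in pellet2 and 7949 in pellet1, 7.88-fold lower, and at 909 in the lysate. Its level in pellet2 was thus back near that of the lysate. Snora17 was lower still by ratio, at 55.9 FPKM in pellet2 and 572 in pellet1, and its values stand in the proportion of 1 to 10. The most abundant snoRNA genes had these values. Snord58b was at 3415580 FPKM in pellet2 and 6024400 in pellet1, or -0.76 on the centred log2 scale, near the median of the box C/D list. Snord34 was at 2331190 FPKM in pellet2 and 3919200 in pellet1, 1.62-fold lower. Snord38a was at 1371390 FPKM in pellet2 and 3013430 in pellet1, 2.11-fold lower. Scarna9, a Cajal body RNA gene, was at 1578060 FPKM in pellet2 and 2021780 in pellet1, 1.23-fold lower.

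The 4 snoRNA genes called higher went against most of the others. In all, 9 of the 88 lay above the median of all members. Snord42a was at 19093 FPKM in pellet2 and 1951 in pellet1, with 2026 in the supernatant and a listing at 0 in the lysate. Its relative Snord42b, listed at the same locus, was listed at 0 in pellet2 and at 2001 in pellet1, so it is no member. The pair is identical at 48 of 70 aligned positions (68.6%), and Snord4a of that locus was at 24687 FPKM in pellet2 and 14674 in pellet1. Snora20 was at 1397 FPKM in pellet2 and 358 in pellet1, with a listing at 0 in both other fractions. Scarna8 was at 1144 FPKM in pellet2 and 583 in pellet1, and Snora61 at 2653 in pellet2 and 1358 in pellet1. Without centring, 1 of the box H/ACA and Cajal body genes was called higher, against 3 with it.

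SnoRNA genes carried 97.1% of the summed FPKM of all members in pellet2 and 98.0% in pellet1. FPKM is scaled to transcript length, so this is not a share of fragments. Their RNAs are also shorter than the library products that were cut from the gel, which ran at 350 to 500 bp with primers attached. Their FPKM is therefore a scale for comparing the same gene between pellets, and not a molar amount. Nor does a high FPKM show that many reads were behind it. Scarna10, at 22249 FPKM in pellet2 and 34172 in pellet1, stands in the proportion of 2 to 3. Snora2b, called lower at 291 FPKM in pellet2 and 694 in pellet1, stands at 3 to 7. Most snoRNA genes gave no such proportion with numbers up to 30. Reads may be any multiple of these numbers, so their count is not known.

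Other genes at the loci of snoRNA genes had ratios near the median of all members. For 61 snoRNA genes, exactly 1 other member was listed at the same locus, giving 46 such genes. Intron and strand were not checked, so these 46 are not established as the genes the snoRNAs are cut from. The snoRNA genes had a median centred log2 ratio of -0.72 and the other genes at their loci had a median of 0.00. A lower ratio than its neighbour was seen for 51 of the 61 snoRNA genes. Of these 46 genes, 3 were called higher in pellet2 and 2 lower, whereas 26 of the 61 snoRNA genes were called lower and 3 higher.

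Rpl4, which encodes a large ribosomal subunit protein, was at 70.2 FPKM in pellet2 and 35.0 in pellet1, and the snoRNA gene Snord16a at its locus was at 16519 in pellet2 and 36779 in pellet1. These moved in opposite directions, each by over 2-fold. Nop58, which encodes a core protein of box C/D particles, was at 57.6 FPKM in pellet2 and 68.0 in pellet1, and Snord11 at its locus was at 57864 in pellet2 and 148119 in pellet1. The values of Snord11 stand in the proportion of 2 to 5. Rpl13a shared its listed locus with 4 snoRNA members and was at 41.6 FPKM in pellet2 and 36.0 in pellet1. Those 4 ran from -1.11 (Snord33) to -0.60 (Snord32a) on the centred log2 scale. Gas5, a noncoding gene of the snoRNA host list, was at 112 FPKM in pellet2 and 162 in pellet1. The host list as a whole had 11 members with 1 higher, 0 lower and a median of 0.44, which turned to -0.16 over the 7 with a mean of at least 20 FPKM.

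**Figure D3:**
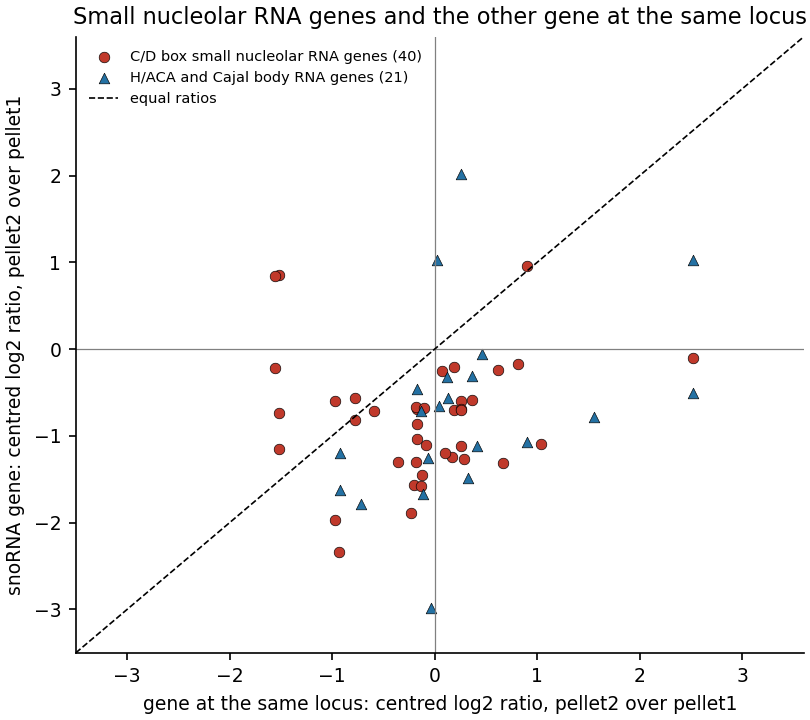
Centred log2 ratio of pellet2 over pellet1 for 61 snoRNA genes (vertical axis) against that of the 1 other gene listed at the same locus (horizontal axis). Circles are box C/D genes and triangles box H/ACA and Cajal body genes; the dashed line marks equal ratios. Most points lie under the dashed line, 51 of 61, while the other genes scatter about 0.

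Other small RNA genes moved less uniformly. The list of spliceosomal and other small RNAs had 7 members with 1 lower, 0 higher and a median of -0.60. Rnu11 and Rnu12, RNAs of the minor spliceosome, were at 15297 and 5770 FPKM in pellet2 and at 26963 and 9512 in pellet1. They were higher in the lysate than in either pellet, at 36099 and 15444 FPKM. Rnu73a and Rnu73b carry an older name for box C/D snoRNA genes. Rnu73a was at 2001 FPKM in pellet2 and 1588 in pellet1, and Rnu73b at 943 in pellet2 and 2131 in pellet1. Both lie in the same listed locus and reads of such copies may not be told apart.

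Of 568 microRNA genes in the table only 12 were members, with 4 higher, 3 lower and a median of -0.25, which turned to 0.20 with a mean of at least 1 FPKM. Mirlet7a-1, a let-7 precursor gene, was at 862 FPKM in pellet2 and 177 in pellet1, in the proportion of 5 to 1. Mir3096 was at 690 FPKM in pellet2 and 4873 in pellet1, 6.78-fold lower. The libraries measured long fragments, so these are values for the region of the precursor and not for the mature microRNA. A further 46 genes passed the level limit but were listed at 0 in 1 pellet and have no ratio. They were 29 listed at 0 in pellet2 and 17 in pellet1, and 32 of the 46 were small RNA genes. The 12 snoRNA genes among these 46 were listed at 0 in pellet2 in 10 cases and in pellet1 in 2, and the 20 microRNA genes in 10 and 10.

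Calls in the lists for the granule under study were 0, which is near the share in genes of their level. The 38 members of the chromatoid body protein list had 0 higher and 0 lower calls and a median of 0.06, and the 19 of the piRNA pathway had 0 and 0 with a median of 0.06. Of all members 6.39% were called, and of the 2160 genes at 30 to 100 FPKM that are not small RNA genes 1.90%, so 0 calls in lists of this size are no result about the lists. Ddx4, which encodes MVH, was at 215 FPKM in both pellets, with 298 in the supernatant and 282 in the lysate. Ybx2, encoding a germ cell mRNA-binding protein that stores transcripts, was at 646 FPKM in pellet2 and 394 in pellet1, the highest ratio of that list, 0.77 on the centred log2 scale. Gtsf1l had the lowest, at 358 FPKM in pellet2 and 567 in pellet1. Of the piRNA pathway genes, Mael was at 195 FPKM in pellet2 and 217 in pellet1. The nonsense-mediated decay list also had 0 calls among 18 members, and so did the 24 genes of CCR4-NOT and decapping. These are levels of the mRNAs of these genes, and not of the proteins in the granule.

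Lists of haploid germ cell genes had 0 calls as well, again near the share in genes of their level. There were 0 calls among 18 genes of nuclear condensation, 25 of the acrosome, 30 of the outer dense fibres and fibrous sheath, 19 of axonemal dyneins and intraflagellar transport and 15 of the sperm glycolytic enzymes. The medians of those 5 lists ran from -0.04 to 0.15. Among the 778 genes at 100 to 1000 FPKM that are not small RNA genes, 1.03% were called, and 1.90% at 30 to 100 FPKM. Prm1, encoding a protamine that packs sperm DNA, was at 9410 FPKM in pellet2 and 8650 in pellet1. Tnp1, encoding a transition protein, was at 9310 FPKM in pellet2 and 7692 in pellet1. Acr, the acrosomal protease gene, was at 227 FPKM in pellet2 and 202 in pellet1, and Odf1, an outer dense fibre gene, at 1935 in pellet2 and 2565 in pellet1. All 4 stayed within 1.5-fold.

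Meiotic spermatocyte genes leaned to pellet2 with 0 calls: 17 of 22 members lay above the median of all members, and the list median was 0.30. Clgn, a chaperone gene needed for sperm surface proteins, was at 319 FPKM in pellet2 and 172 in pellet1. Hormad1, of the meiotic chromosome axis, was at 46.8 FPKM in pellet2 and 26.1 in pellet1. Hspa2, a germ cell chaperone gene, was at 374 FPKM in pellet2 and 263 in pellet1. The summed level of 4 spermatocyte markers was 536 FPKM in pellet2 and 379 in pellet1, and that of 6 round spermatid markers was 19448 in pellet2 and 17153 in pellet1. Hspa2 made up most of the first sum, and Tnp1 and Prm1 nearly all of the second. Of the spermatid markers, Acrv1 was lower in pellet2, at 224 FPKM against 314 in pellet1. So was Spaca1, at 192 FPKM in pellet2 and 233 in pellet1, while the other spermatid markers were higher.

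Genes of the translation and splicing machinery leaned the same way, and a few of them passed 2-fold. Pellet2 was called higher for 10 of 66 cytosolic ribosomal protein genes and lower for 2, against 3.11% and 3.28% of all members. Of protein-coding genes with a transcript under 1 kb, 8.24% were higher and 7.0% lower, and the ribosomal list was not matched for length. The median of the ribosomal list was 0.29, with 48 above the median of all members. Rps18, a small subunit gene, was at 223 FPKM in pellet2 and 72.3 in pellet1, and the supernatant and lysate lay between the pellets at 121 and 132. Rps24 was at 118 FPKM in pellet2 and 50.1 in pellet1. Rps9 went the other way, at 44.6 FPKM in pellet2 and 95.6 in pellet1. Rps20, among the most abundant of that list, was at 296 FPKM in pellet2 and 259 in pellet1. Ribosomal protein genes have many processed copies, and the sources used here do not say how reads were shared among them.

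Splicing factor and hnRNP genes gave 5 higher and 0 lower calls among 71, against 3.11% and 3.28% of all members. Their median was 0.31, with 47 above the median of all members. Prpf38b, a splicing factor gene, was at 91.0 FPKM in pellet2 and 37.2 in pellet1, against 46.9 in the supernatant and 38.5 in the lysate. Hnrnpm was at 67.5 FPKM in pellet2 and 31.7 in pellet1. The most abundant members of that list stood level, as Hnrnph1 at 371 FPKM in pellet2 and 383 in pellet1. Translation initiation factor genes had 1 higher and 0 lower of 43, chromatin regulators 2 and 0 of 61, and heat shock and chaperone genes 3 and 1 of 69. Their medians were 0.14, 0.15 and 0.16. The calls in these last lists are near the shares of all members, and so are no result about the lists. Smarcc2, encoding a subunit of the SWI/SNF chromatin remodeller, was at 40.7 FPKM in pellet2 and 18.4 in pellet1.

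Histone and respiratory chain genes had calls in both directions. The 33 clustered histone genes had 7 higher and 4 lower, against 3.11% and 3.28% of all members, with a median of 0.02. Hist1h2bf was at 23.1 FPKM in pellet2 and 6.34 in pellet1, while Hist1h4a was at 13.0 in pellet2 and 40.8 in pellet1. Nuclear genes of the respiratory chain had 5 higher and 7 lower of 70, against the same 3.11% and 3.28%, with a median of 0.02. Neither list was matched for transcript length. Of protein-coding genes with a transcript under 1 kb, 8.24% were higher and 7.0% lower, so the shares of all members are a loose measure here. Atp5k, of ATP synthase, was at 181 FPKM in pellet2 and 85.8 in pellet1, while Cox6c, of cytochrome oxidase, was at 180.4 in pellet2 and 397 in pellet1. The 55 mitochondrial ribosomal protein genes had 2 higher and 3 lower with a median of 0.12, and the 36 proteasome subunit genes 1 and 1 with a median of 0.03.

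**Figure D4:**
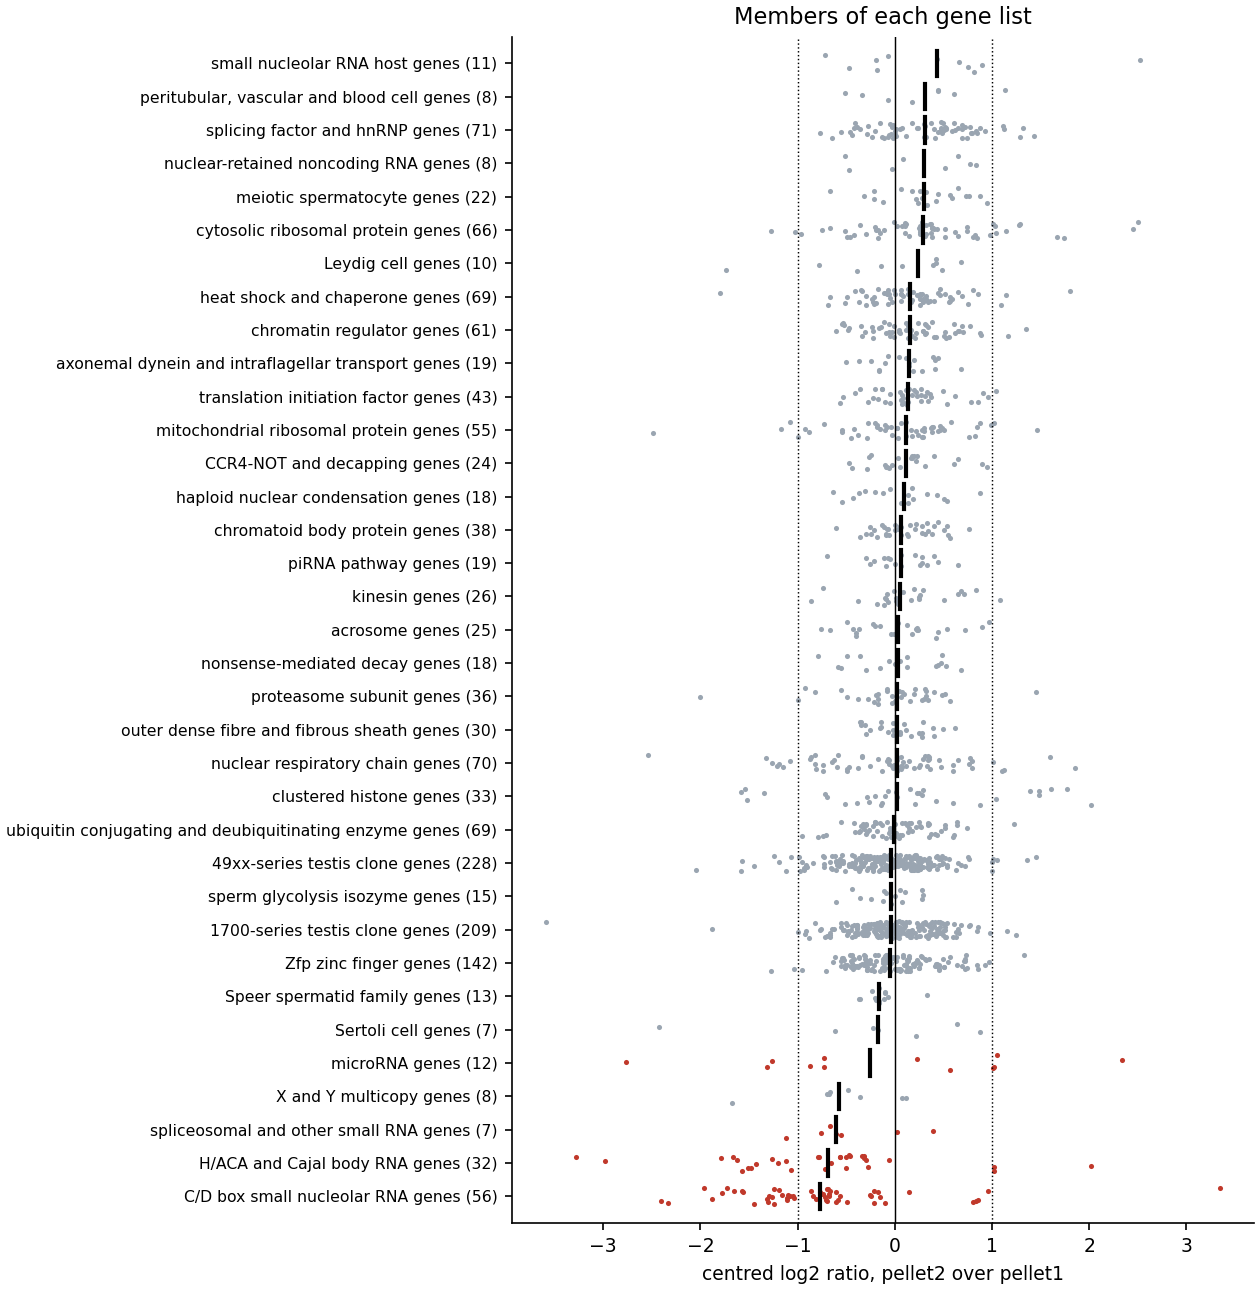
Centred log2 ratio of pellet2 over pellet1 for the members of each gene list with at least 5 members; the number of members is in brackets. Points are genes (red for small RNA genes), black bars are list medians, the solid line is the median of all members and the dotted lines mark 2-fold. The snoRNA lists stand at the bottom, with medians of -0.77 and -0.69, and the spermatid lists lie close to 0.

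Long noncoding RNAs that are held in the nucleus gave 0 calls among 8 members with a median of 0.30. Malat1, an RNA of nuclear speckles, was at 679 FPKM in pellet2 and 394 in pellet1, and Neat1, the scaffold of paraspeckles, at 242 in pellet2 and 147 in pellet1. Both were higher in pellet2 by under 2-fold. Rmrp, the RNA of the RNase MRP enzyme, differed little, at 8296 FPKM in pellet2 and 8114 in pellet1. Rpph1, the RNA of RNase P, was at 1151 FPKM in pellet2 and 1711 in pellet1. Nuclear RNAs thus gave no common direction: the snoRNA genes were lower in pellet2 and these 2 long RNAs higher.

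The Speer genes, a multicopy family of round spermatids, were evenly a little lower, with 12 of 13 members below the median of all members, 0 calls and a median of -0.16. Speer4d was at 734 FPKM in pellet2 and 852 in pellet1, against 79.7 in the supernatant and 109 in the lysate. Both pellets were thus far above the lysate for this gene. Adam23, of the ADAM family of membrane proteins, was at 256 FPKM in pellet2 and 148 in pellet1, against 13.9 in the supernatant and 20.6 in the lysate. Reads of the Speer copies may not be told apart.

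X-linked genes had a median of -0.12 over 216 members, with 9 higher (4.17%) and 15 lower (6.94%), against 3.11% and 3.28% of all members. It was the lowest median of any chromosome but the Y, where 6 members had 0 calls and a median of -0.44. The list of multicopy X and Y genes had 8 members with 0 higher, 1 lower and a median of -0.58. Sly, a multicopy Y gene of spermatids, was at 12.7 FPKM in pellet2 and 21.7 in pellet1, in the proportion of 3 to 5. Slxl1, its X-linked relative, was at 75.6 FPKM in pellet2 and 72.4 in pellet1. Pellet2 was made from pellet1, so these are levels in fractions of the same preparation, and not numbers of cells or RNA per cell. Why they differ was not tested.

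Part of the somatic cell lists were members. In all, 7 of 29 Sertoli genes, 10 of 19 Leydig genes and 8 of 28 peritubular, vascular and blood genes were members. The summed level of 5 Leydig markers was 162 FPKM in pellet2 and 143 in pellet1, that of 6 Sertoli markers 25.6 in pellet2 and 29.6 in pellet1, and that of 6 peritubular, vascular and blood markers 45.3 in pellet2 and 49.8 in pellet1. The 4 macrophage markers summed to 9.74 FPKM in pellet2 and 5.64 in pellet1, with Cd68 listed at 0 in both. Of these, C1qa was at 6.23 FPKM in pellet2 and listed at 0 in pellet1, and Lyz2 was at 1.90 in pellet2 and 4.56 in pellet1. Their part in the results was not tested. Calls among the members were single genes: the Sertoli list had 0 higher and 1 lower with a median of -0.17, and the Leydig list 0 and 1 with a median of 0.23. The peritubular, vascular and blood list had 1 higher and 0 lower with a median of 0.31, and 1 of 2 macrophage members was higher. Of all members 6.39% were called, and 12% of the genes at 5 to 10 FPKM that are not small RNA genes. A single call in lists of this size is thus no result about the lists. Insl3 of the Leydig list was at 64.7 FPKM in pellet2 and 64.0 in pellet1, and Cyp17a1 at 66.2 in pellet2 and 51.0 in pellet1, both above the median member. Hbb-b1, a globin gene, was at 11.9 FPKM in pellet2 and 5.15 in pellet1, and C1qb, a complement gene of the macrophage list, at 9.82 in pellet2 and 3.52 in pellet1. The 2 lower genes were Ptgds and Defb19. Ptgds, a prostaglandin synthase gene of the Leydig list, was at 6.29 FPKM in pellet2 and 24.3 in pellet1, and Defb19, a defensin gene of the Sertoli list, at 4.37 in pellet2 and 29.1 in pellet1.

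Outside the small RNAs, these were among the largest ratios in each direction, with folds on the centred log2(FPKM + 1) scale. At such low levels that scale gives smaller folds than the listed FPKM do. Mgp, the matrix Gla protein gene, was at 26.5 FPKM in pellet2 and 1.09 in pellet1, 13.7-fold higher. Npb, the neuropeptide B gene, was at 15.8 FPKM in pellet2 and 0.621 in pellet1, 10.8-fold higher. Plac8 was at 0.853 FPKM in pellet2 and 22.7 in pellet1, 12.3-fold lower. Npm2, the gene of a nucleoplasmin best known from oocytes, was at 0.531 FPKM in pellet2 and 12.5 in pellet1, 8.48-fold lower.

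Some of these ratios equal those of small whole numbers. In 275 of 5627 genes with few alignments, the ratio of the 2 pellets took the same value. Read as that of equal read numbers, it puts the depth of pellet2 at 1.02 times that of pellet1. Against that unit, Mgp stood in the proportion of 25 in pellet2 to 1 in pellet1 and Npb of 26 to 1. For Plac8 the proportion was 1 in pellet2 to 26 in pellet1 and for Npm2 it was 1 to 23. The reads behind such a pair may be any multiple of both numbers, so their count, and an interval for the ratio, are not known. Ndufv3, of respiratory complex I, was at 4.43 FPKM in pellet2 and 31.8 in pellet1, in the proportion of 1 to 7. Of the 20 genes with the 10 largest and 10 smallest ratios, 13 had such a pair with no number above 30, and in 11 of these the number for the lower pellet was 1.

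The share of genes with such a pair went with the call and the level. A pair with no number above 30 was found for 23.8% of the 248 higher and 27.9% of the 229 lower genes that are not small RNA genes, against 11.9% of the 7651 within 2-fold. It was found for 22.9% of the genes at 5 to 10 FPKM and 2.76% of those at 100 FPKM or more. Chance agreement with such a pair is possible, and a gene without one may have larger numbers or fractional reads.

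At a mean of 50 FPKM or more, 1825 genes that are not small RNA genes were left, with 15 higher and 9 lower. Besides Rps18, Rps24, Prpf38b and Atp5k, the higher ones included Anapc13, of the anaphase-promoting complex, at 77.5 FPKM in pellet2 and 25.1 in pellet1. Serf1 was at 423 FPKM in pellet2 and 188 in pellet1, and the protease gene Prss39 at 109.6 in pellet2 and 50.5 in pellet1.

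Moap1, which encodes a modulator of apoptosis, led the lower genes at 20.6 FPKM in pellet2 and 111 in pellet1, 5.01-fold lower, at mm9 chr12:103978040-103996020. Its level was 33.2 FPKM in the supernatant and 33.9 in the lysate, so it was pellet1 that stood far from the rest. The authors' deposited table gives Moap1 a q-value of 0.00113. Clp1, of mRNA 3′ end processing, was at 46.7 FPKM in pellet2 and 108 in pellet1, with 19.2 in the supernatant and 18.9 in the lysate. Pdhb, of pyruvate dehydrogenase, was at 66.8 FPKM in pellet2 and 147 in pellet1, in the proportion of 7 to 15. Trappc2l, of a vesicle tethering complex, was at 33.0 FPKM in pellet2 and 75.1 in pellet1.

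Pellet1 lay farther from the lysate than pellet2 more often than the reverse, for called genes and for genes at large. On the centred log2 scale this held for 181 of 247 higher genes and 137 of 228 lower genes that are not small RNA genes and are above 0 in the lysate. At 50 FPKM or more it held for 13 of 15 and 8 of 9. The same was true of genes at large, with pellet1 farther for 5290 of 8124 and a median distance of 0.49 for pellet2 and 0.63 for pellet1. It is thus no trait particular to the called genes, and the lower genes showed it less often than genes at large. For snoRNA genes it held for 74 of 82. Both distances share the lysate library.

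The supernatant and the lysate share no library with the pellets. Across 8120 genes that are not small RNA genes, the ratio of supernatant over lysate had a Spearman rho of 0.20 with the ratio of pellet2 over pellet1, as a description across genes, which are not independent replicates. The genes called higher in pellet2 had a median of 0.05 in supernatant over lysate on the centred log2 scale and those called lower a median of -0.09. For the box C/D genes that median was -1.23, and for the box H/ACA and Cajal body genes -1.04. By these medians the genes called between the pellets lay close to 0 in supernatant over lysate, and the snoRNA genes did not.

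How often a gene was called followed its length and its level, in both directions alike. Among protein-coding members, 15.2% of 643 genes with a transcript under 1 kb were called, against 9.15% at 1 to 2 kb, 5.43% at 2 to 3 kb, 3.29% at 3 to 5 kb and 1.55% of 1481 genes over 5 kb. The share higher was 8.24% and the share lower 7.0% under 1 kb. Within the range of 20 to 100 FPKM the shares called still ran from 7.60% under 1 kb to 0.18% over 5 kb. By level, 12% of genes other than small RNA genes were called at 5 to 10 FPKM, 5.75% at 10 to 30, 1.90% at 30 to 100, 1.03% at 100 to 1000 and 0 of 19 above that.

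The ratio itself had a Spearman rho of 0.06 with transcript length over 7769 protein-coding genes, 0.09 with the number of exons and -0.02 with GC content. Its absolute size had a rho of -0.17 with length and, over 8128 genes, -0.20 with the mean level. Length and level thus went with how widely a gene spread and hardly with its direction.

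**Figure D5:**
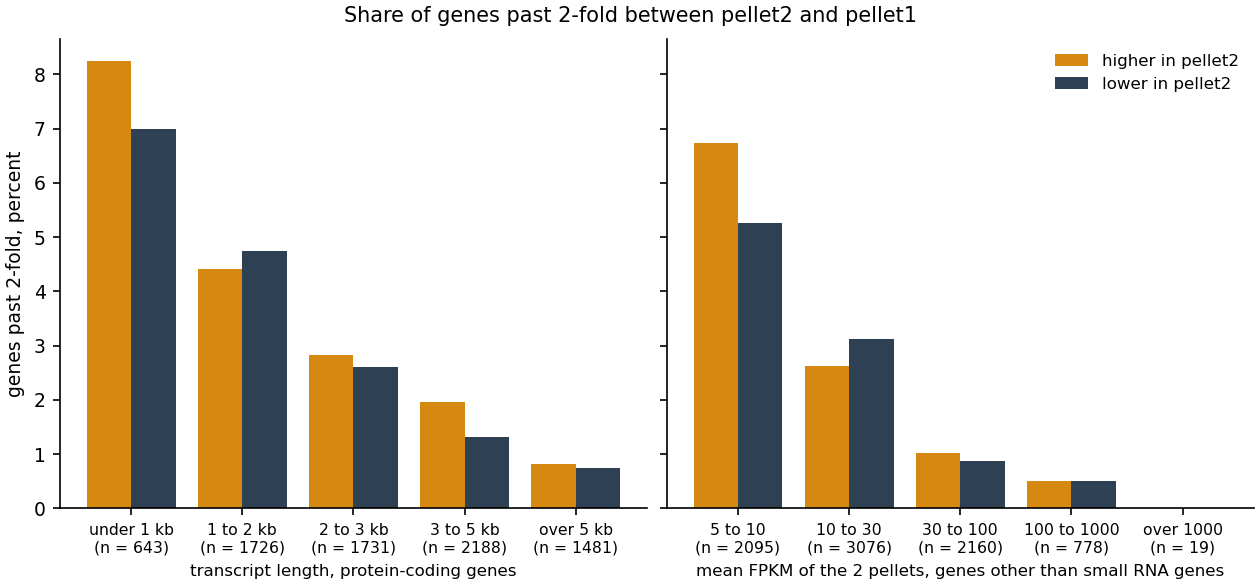
Share of genes past 2-fold, in percent, by transcript length of protein-coding genes (left) and by mean FPKM of the 2 pellets for genes other than small RNA genes (right). Orange bars are genes higher in pellet2 and dark bars genes lower in pellet2; n is the number of genes in each class. Both shares fall from 8.24% and 7.0% under 1 kb to under 1% over 5 kb, and to 0 above 1000 FPKM.

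The authors' deposited table makes its own comparison of the pellets, with 1 library each. At a q-value under 0.05 it calls Moap1 and Snord92, 2 of the 8235 members (0.0243%), both lower in pellet2. At an unadjusted p-value under 0.05 the same table lists 51 members, of which 16 were higher and 35 lower. Of these 51, 20 were small RNA genes, and all 20 were snoRNA genes lower in pellet2. Snord38a, Snord58b and Snora31 were among them, with p-values of 0.0279, 0.0212 and 0.0196 in the authors' deposited table.

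The gene table of the MVH IP, which was scaled apart and lists genes from 5.00 FPKM, held 71.3% of all members. It held 60.9% of the higher, 71.2% of the lower and 72.6% of the other genes that are not small RNA genes, and 0 of the 88 snoRNA genes. A gene absent from that table is under its floor or was not listed, so these shares set no level in the IP.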

How the data were processed

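FPKM values were those the authors deposited in a joint Cuffdiff table, with 1 value per gene and fraction; the submitters' processing notes name TopHat, Cuffdiff and mm9. Versions, strand use (so overlapping and antisense genes cannot be told apart), scaling and read totals are not stated there, and absolute depth is unknown. The p-values and q-values are the authors' own, per the file headers. Column values of the MVH IP in the joint table were not used, being 1 value for 3 libraries. From the deposited FPKM, log2(FPKM + 1) ratios of pellet2 over pellet1 were computed for genes with a mean of at least 5 FPKM and above 0 in both, and centred on their median. Transcript lengths, exons and sequences came from GENCODE M21 (8132 members matched). Whole-number pairs, which need not be read counts, were the smallest numbers, up to 30, whose ratio met the FPKM ratio within 0.002%. Python 3.11.15, pandas 2.3.3 and scipy 1.17.1 were used. The calling code was run on simulated data with little noise, pellet1 levels of at least 20 FPKM and planted changes well past 2-fold. That run checks the code and not the calls made here. Members and all 37 gene lists were chosen with earlier results of these data known. Named genes were the 10 largest and smallest ratios overall and at 50 FPKM, 5 of small RNA genes each way, 3 most abundant and 2 most changed of each list, and the authors' calls; others were named after their values were seen. The design assumed values per library and a test; 1 library each allows none.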

Additional observations from a re-analysis of the deposited data

How the results depend on the processing

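No paired analysis was possible because each pellet is 1 library, so the replicate numbers pair nothing, and no replicate could be left out. The count of calls followed the level limit and the fold. With a pseudocount of 5 there were 98 higher and 126 lower genes, against 256 and 270 as reported. With a mean of at least 1 FPKM there were 656 and 617, with no limit 1070 and 1097, with a mean of at least 20 FPKM 54 and 84, and at 3-fold 60 and 62; more or fewer genes tested, a stricter fold, or a pseudocount that shrinks low genes makes that difference by construction. Under the other alternatives both counts stayed within 1.5 times. Without centring the counts were 210 and 312, and scaled to the summed FPKM of genes other than small RNA genes 318 and 228. Of the medians of the gene lists, 315 moved by less than the SD of all members (0.552 on the log2 scale) and 1, that of the snoRNA host genes, by more; of the ratios of named genes 1745 moved by less and 35 by more, all under another pseudocount, and no named ratio changed sign among the called genes. Lower calls among the box C/D genes numbered 21 to 27 of 56 to 61 under the alternatives at 2-fold and 7 at 3-fold, and among the box H/ACA and Cajal body genes 12 to 20 of 32 to 40 and 5 at 3-fold. These are counts, and which genes they were was not compared.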

Other observations

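Features without a gene symbol, which are no members, leaned to pellet2. Of 4922 transcripts that were assembled without a name, 4351 passed the same level limit, with 1126 higher (25.9%), 415 lower (9.54%) and a median centred log2 ratio of 0.35. Of 197 piRNA clusters, 176 passed it, with 16 higher (9.09%), 2 lower (1.14%) and a median of 0.50. Of all members 3.11% were higher and 3.28% lower. Some clusters are listed at the same locus, as clusters 100 to 103 are, so the 176 are not all separate regions. Cluster 49 had the lowest ratio, at 4.13 FPKM in pellet2 and 13.9 in pellet1. The authors' deposited table calls cluster 177, at 58282 FPKM in pellet2 and 66701 in pellet1. That is a small difference, of -0.14 on the centred log2 scale, and goes against the lean of the clusters. Its level is far above that of any other cluster. These features were centred on the median of the genes with a symbol.

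AF357355, which was kept outside the small RNA lists, was at 61700 FPKM in pellet2 and 103366 in pellet1, 1.61-fold lower, with 2647 in the supernatant and 4492 in the lysate.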
